A study of Arabidopsis thaliana with 6 samples.

Results

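The genes described here encode the vacuolar-type proton pumps of Arabidopsis thaliana: 28 genes for subunits of the vacuolar H+-ATPase (V-ATPase, gene names VHA) and 3 for membrane pyrophosphatases (AVP1, AVP2 and AVPL1). They were taken by locus, with all paralogues of subunits A to H, a, c, c'', d and e, and all 31 of the 31 loci were found among the 27827 features of the array. RNA came from mature pollen grains of ecotype Columbia 0 plants that were wild type or heterozygous for a NOT1 mutation (NOT1+/-), with 3 biological replicates per genotype, and was hybridised to 6 one-colour Affymetrix whole-transcript arrays. NOT1 is the scaffold of CCR4-NOT, the complex that shortens poly(A) tails. Per the labels, grains were washed out of open flowers, filtered and sorted by flow cytometry, about 300000 of them for a sample, and 100 ng of RNA served for amplification and labelling. A heterozygous plant makes grains of both genotypes, and NOT1+/- pollen is therefore a mixture. The sources used here do not give the kind of mutation or whether the plants came from 1 line.

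The V-ATPase is a rotary pump. Its soluble V1 sector (A to H) hydrolyses ATP, and its membrane sector, VO (a, c, c'', d and e), carries protons into vacuoles and into the trans-Golgi network. Membrane pyrophosphatases acidify the same compartments with pyrophosphate as the fuel, and the proton gradient drives exchangers and channels that load the vacuole. In growing pollen tubes these pumps are known to serve vacuoles and the secretory vesicles that feed the tip.

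The labels were checked first. NOT1 (AT1G02080) had intensities of 47.6, 51.0 and 46.9 on the wild-type arrays and 28.6, 31.8 and 32.6 on the NOT1+/- arrays, which did not overlap (limma log2 fold change -0.65, SE 0.15, adjusted p = 0.029). The positions of its mutation and probes are not stated in the labels. All 7 markers of the pollen vegetative cell were bright, with wild-type means from 853 to 3070. Their summed intensity was 11250 to 11850 in wild type and 11780 to 12130 in NOT1+/-. Of the 7, 1, ANX1, was called higher (log2 fold change 0.61). ANX2 pointed the other way (-0.29) and did not pass (limma adjusted p = 0.281). The summed intensity of 7 leaf photosynthesis markers was 75.8 to 87.4 in wild type and 51.7 to 65.9 in NOT1+/-. The 2 called lower were CAB2, from a mean of 9.76 to 5.87, and LHCA1, from 17.7 to 9.82. The 5 tapetum markers summed to 40.8 to 47.5 and 40.5 to 49.5, with 0 called by limma and 1 at an unadjusted p under 0.05. Of 5 sperm cell markers, HTR10 and DUO1 were called higher (log2 fold changes 0.75 and 1.08). GEX2, HAP2 and DAF1 did not pass (-0.09, 0.31 and 0.09). The list summed to 1449 to 1605 and 1575 to 1961, most of it from DAF1, with a wild-type mean of 1251. Among all features 8.84% were called higher and 3.22% lower, and 25.7% had an unadjusted limma p under 0.05. The leaf and tapetum markers were dim, with wild-type means of 7.14 to 17.7 and 5.40 to 12.2, around the array medians of 12.0 to 13.1. Whether their values were above background was not tested. In bulk RNA, fewer cells of a type and less RNA per cell cannot be told apart, and the part of these lists in the results below was not tested.

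In NOT1+/- pollen 8 of the 31 pump genes rose, 1 fell and 22 did not pass the test. VHA-E2 and VHA-G3 of the V1 stalks rose 10.5-fold and 13.7-fold. VHA-a1 and VHA-a2 of the membrane sector rose 2.41-fold and 3.48-fold, and the pyrophosphatase AVP2 4.57-fold. VHA-A, VHA-B1 and VHA-B3 of the catalytic head rose between 1.55-fold and 2.01-fold. In the E, G, a and pyrophosphatase families the rising genes rose relative to the paralogues that were not called higher. Rising paralogues of 1 family, VHA-a1 and VHA-a2 or VHA-B1 and VHA-B3, were not shown to differ. VHA-G2 was the 1 gene that fell. A gene was called at an adjusted p under 0.05 in limma, a linear model with variances shared across features, with Benjamini-Hochberg adjustment over all 27827 features, and folds are ratios of geometric means. Higher calls made up 25.8% of the pump genes and 8.84% of all features; lower calls made up 3.23% and 3.22%. Bright features were called more often: above the 75th percentile of wild-type level, 15.7% of features and 6 of 26 pump genes (23.1%) were higher, and 9.16% and 1 of 26 were lower. All 3 NOT1+/- values lay above all 3 wild-type values in 10 of the 31 genes, against 14.9% of all features, and below them in another 10, against 16.9%. The median log2 fold change was -0.01 over the 31 genes and -0.10 over all features.

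The balance of these counts depended on array scaling. The upper percentiles of intensity were higher in NOT1+/- arrays (95th percentile 193 to 202) than in wild type (133 to 141). The array medians were 12.0 to 12.3 in NOT1+/- and 12.3 to 13.1 in wild type. The part of these differences in the counts was not tested. After quantile normalization 6 pump genes were higher and 9 lower, where 7.91% of all features were higher and 7.15% lower. The median log2 fold change there was -0.43 over the 31 genes and -0.09 over all features. After centring on the 75th percentile 6 pump genes were higher and 2 lower, beside 7.95% and 5.25% of all features. Over all features the share of calls that were higher went from 73.3% to 52.5% and 60.2% in these 2 fits. Median centring moved that share the other way, to 82.5%. It gave 8 pump genes higher and 0 lower, beside 9.68% and 2.05% of all features. VHA-B3, VHA-E2, VHA-G3, VHA-a1, VHA-a2 and AVP2 were called higher in all 13 alternative fits, including those that left out 1 array each. VHA-a2 and AVP2, dim in wild type, passed the filter on dim features only through their NOT1+/- values, so that fit is no support for these 2 and 12 remain.

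**Figure D1:**
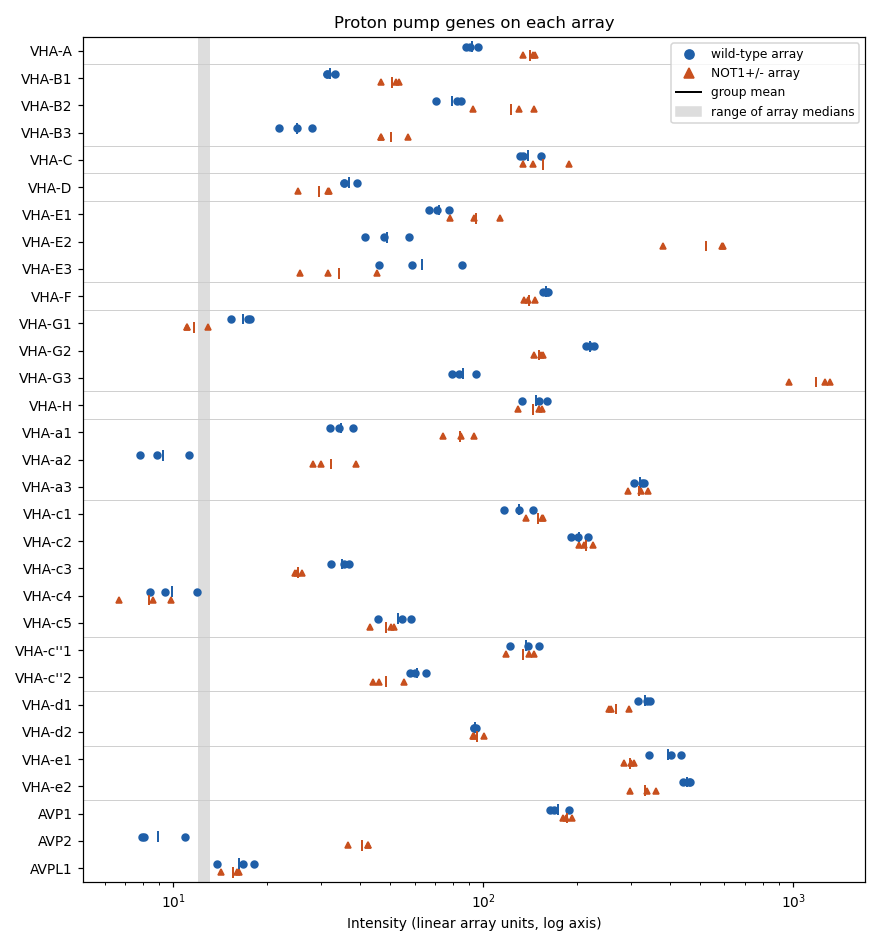
Intensity of the 31 pump genes on each array (log axis), grouped by subunit; circles are the 3 wild-type arrays, triangles the 3 NOT1+/- arrays, short bars the group means, and the grey band the range of array medians (12.0 to 13.1). VHA-E2, VHA-G3, VHA-a1, VHA-a2 and AVP2 lie far to the right in NOT1+/-, while the other genes stay closer to their wild-type values.

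Intensities of different genes come from different probes, so the order of paralogues on 1 array is an order of signal and not of RNA amount. The change of 1 paralogue relative to another does not depend on the brightness of their probes, as long as signal stays proportional to RNA. It was therefore tested directly: for each of 28 pairs of paralogues the log2 difference on each array was compared between genotypes, in the same limma model with the 28 differences added to the features. Of these pairs, 9 changed relative to each other. In that fit 12.1% of all rows were called, but nearly all rows are single features, so this is not a rate for pairs. The pairs share genes, and 8 of the 9 hold at least 1 gene that was called alone. With 3 arrays against 3, the exact two-sided permutation test cannot go below p = 0.1, and all 9 called pairs had that value.

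**Figure D2:**
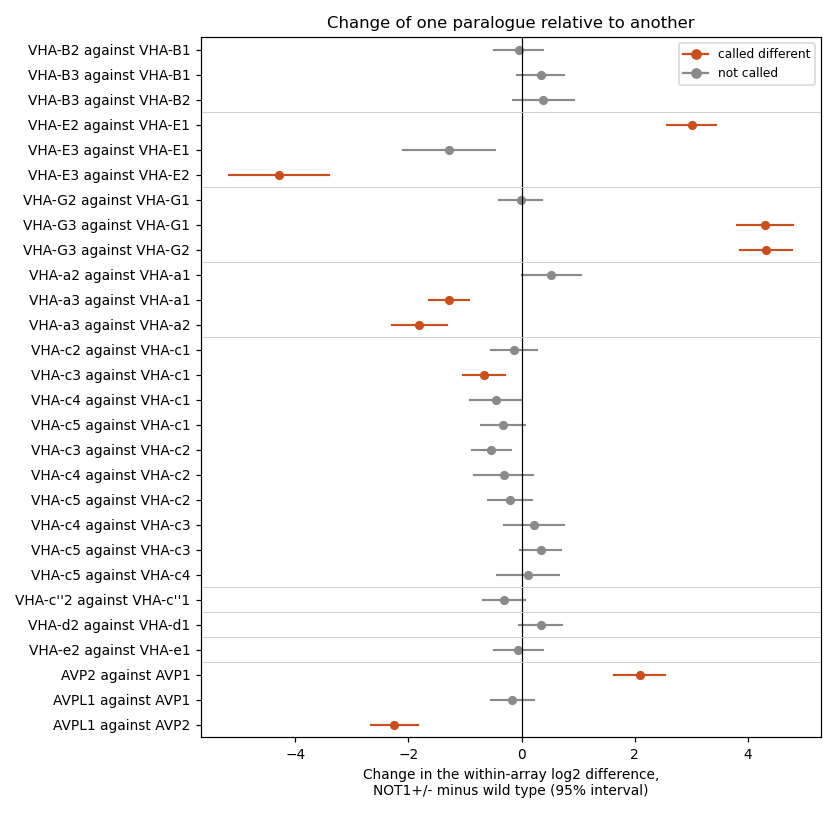
Change between genotypes in the within-array log2 difference of each pair of paralogues, with 95% intervals; positive values mean that the first gene named rose relative to the second. The 9 called pairs include every pair that sets VHA-E2, VHA-G3 or AVP2 against its relatives and both pairs that set VHA-a3 against VHA-a1 or VHA-a2.

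In the catalytic head, formed by alternating A and B subunits, 3 of 4 genes rose. VHA-A (AT1G78900_at), the subunit that hydrolyses ATP, had intensities of 88.2, 90.7 and 96.2 in wild type and 147, 144 and 134 in NOT1+/-. The groups did not overlap, and the gene rose by a log2 fold change of 0.63 (95% interval 0.29 to 0.97, limma adjusted p = 0.031). VHA-B1 (AT1G76030_at), one of the B subunits, which bind nucleotide without being the main catalytic site, had 31.4, 31.2 and 33.3 against 52.2, 53.3 and 46.7 (log2 fold change 0.66, interval 0.32 to 1.01, adjusted p = 0.026). VHA-B3 (AT1G20260_at) had 28.1, 25.1 and 21.9 against 46.8, 57.0 and 46.9 and rose 2.01-fold (log2 fold change 1.01, interval 0.60 to 1.41, adjusted p = 0.0076). VHA-B2 (AT4G38510_at) had 70.4, 85.0 and 82.0 against 146, 131 and 92.7. Its groups did not overlap either, but NOT1+/- replicate 3 lay close to wild type and the log2 fold change of 0.62 (interval 0.13 to 1.11) did not pass (adjusted p = 0.109); without that array it was 0.81 with an adjusted p of 0.040.

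No pair of the 3 B genes passed the test of a difference in change. The estimates were -0.05 for B2 against B1 (interval in folds 0.718 to 1.31), 0.34 for B3 against B1 (0.95 to 1.69) and 0.39 for B3 against B2 (0.896 to 1.91), so these intervals reach up to a 1.91-fold difference. The smaller calls of the head were sensitive to the arrays and the scaling. VHA-A lost its call without any 1 of the 6 arrays (adjusted p 0.051 to 0.115) and VHA-B1 when any array but NOT1+/- replicate 3 was left out (0.051 to 0.10). After quantile normalization their log2 fold changes were 0.19 and 0.40 (adjusted p = 0.464 and 0.134), and with arrays centred at their 75th percentile 0.53 and 0.57 (0.063 and 0.054).

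The peripheral stalks, which hold the head still while the rotor turns, are pairs of E and G subunits, and 1 gene of each family rose. VHA-E2 (AT3G08560_at), whose promoter is known to be active in pollen, had intensities of 41.5, 57.8 and 47.7 in wild type and 593, 590.1 and 382 in NOT1+/-. Every NOT1+/- array was far above every wild-type array, with replicate 3 the lowest of the 3. The rise was 10.5-fold (log2 fold change 3.40, SE 0.23, interval 2.86 to 3.93, limma adjusted p = 5.65e-05), and 0.783% of all features had a larger one. Among the features of an array, its mean percentile went from 88.0 to 97.7.

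VHA-E1 (AT4G11150_at), the E isoform that embryos require (its mutant is called tuff), had 66.6, 70.9 and 77.6 against 93.6, 113 and 78.4. Its lowest NOT1+/- array lay just above its highest wild-type array, and the log2 fold change of 0.39 (interval -0.04 to 0.82) did not pass (adjusted p = 0.235). VHA-E3 (AT1G64200_at) pointed the other way, with 85.2, 46.2 and 58.9 against 45.4, 25.6 and 31.5. The wild-type arrays were widely spread and the lowest of them nearly met the highest NOT1+/- array; the log2 fold change was -0.89 (interval -1.56 to -0.21, adjusted p = 0.098). VHA-E3 was called lower in 5 of the 13 alternative fits, among them the one with quantile normalization (log2 fold change -1.17, adjusted p = 0.034).

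Relative to VHA-E1, VHA-E2 moved from a log2 difference of -0.56 ± 0.23 in wild type to 2.45 ± 0.20 in NOT1+/- (SD, n = 3 arrays each). That is a change of 3.00 (interval in folds 5.91 to 10.9, limma adjusted p = 4.20e-05). Relative to VHA-E2, VHA-E3 fell by 4.29 on the log2 scale (adjusted p = 2.23e-04). The change of VHA-E3 relative to VHA-E1, -1.28, lay just outside the threshold (adjusted p = 0.053, and 0.013 to 0.149 over the alternatives).

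In the G family VHA-G3 (AT4G25950_at) had 83.4, 94.9 and 79.5 in wild type and 1267, 1312 and 967 in NOT1+/-. It rose 13.7-fold (log2 fold change 3.77, SE 0.18, interval 3.35 to 4.20, limma adjusted p = 1.23e-05), the largest change among the 31 genes, and reached a mean percentile of 99.1 on the NOT1+/- arrays. VHA-G2 (AT4G23710_at), the brightest G gene in wild type by signal, had 222, 215 and 228 against 146, 154 and 156. These groups were tight and well separated, and it was the 1 pump gene called lower, at 68.5% of the wild-type level (log2 fold change -0.55, SE 0.15, adjusted p = 0.049). VHA-G1 (AT3G01390_at) had 17.4, 17.7 and 15.3 against 11.0, 11.0 and 12.9, close to the array medians; its log2 fold change of -0.53 was almost the same but did not pass (adjusted p = 0.076).

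VHA-G3 rose relative to VHA-G2 by 4.32 on the log2 scale (interval in folds 14.6 to 27.4) and relative to VHA-G1 by 4.30 (14.02 to 27.8). The change between VHA-G2 and VHA-G1 had a fold interval of 0.762 to 1.28. That pair was called in 1 of the 13 alternatives, quantile normalization (log2 change -0.62, limma adjusted p = 0.033). The relative changes of VHA-G3 and VHA-E2 were called in all 13 alternatives. The call of VHA-G2 as lower was not: leaving out any 1 array ended it (adjusted p between 0.083 and 0.158) as did median centring (0.104), while quantile normalization gave it a log2 fold change of -1.10.

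**Figure D3:**
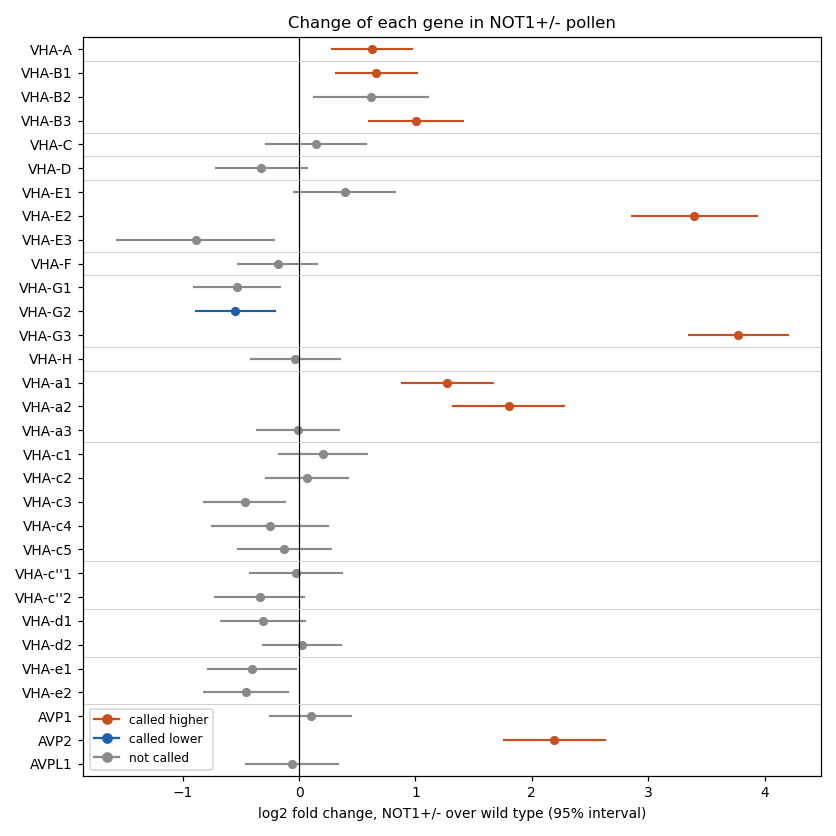
Log2 fold change of each pump gene in NOT1+/- over wild-type pollen, with 95% intervals from limma; orange marks genes called higher, blue the gene called lower, grey those not called. VHA-E2 (3.40) and VHA-G3 (3.77) stand far to the right of their paralogues, and AVP2 (2.19) of both other pyrophosphatases.

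The remaining V1 subunits have 1 gene each and showed smaller differences, none of which passed in this fit. VHA-C (DET3, AT1G12840_at), which links stalk and membrane sector and is named after a mutant that develops in the dark as if in light, had 134, 131 and 154 in wild type and 134, 144 and 189 in NOT1+/-. The groups overlapped (log2 fold change 0.15, interval -0.29 to 0.58). VHA-H (AT3G42050_at), a regulatory subunit between V1 and VO, had 133, 160.5 and 151 against 151, 155 and 129.8 and overlapped too (-0.03, interval -0.41 to 0.35).

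The rotor subunits D and F, which form the central shaft, did not pass either. VHA-D (AT3G58730_at) had 35.4, 39.2 and 35.6 against 31.8, 31.6 and 25.2 (log2 fold change -0.32, interval -0.71 to 0.06, limma adjusted p = 0.276). VHA-F (AT4G02620_at) had 156, 161 and 161 against 147, 135 and 139.6 (-0.18, interval -0.52 to 0.16, adjusted p = 0.484). In both genes the groups did not overlap, but this held for 31.8% of all features. After quantile normalization VHA-F was called lower (log2 fold change -0.69, adjusted p = 0.016).

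In the membrane sector the 3 genes for subunit a, the large protein that forms the proton channel beside the ring and carries the targeting signal, divided into 2 that rose and 1 that did not pass. VHA-a1 (AT2G28520_at), known to reside in the trans-Golgi network, had 31.9, 34.2 and 38.1 in wild type and 84.5, 93.6 and 73.9 in NOT1+/-. It rose 2.41-fold (log2 fold change 1.27, SE 0.17, interval 0.88 to 1.66, limma adjusted p = 0.0018). VHA-a2 (AT2G21410_at) and VHA-a3 (AT4G39080_at) are known as the isoforms of the vacuole membrane. VHA-a2 had 11.2, 8.84 and 7.80 against 28.1, 38.7 and 30.0 (log2 fold change 1.80, SE 0.21, interval 1.32 to 2.28, adjusted p = 8.35e-04). All 3 of its wild-type values lay below the median of their array, and its mean percentile went from 28.3 to 80.6.

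VHA-a3 was bright, and its groups overlapped, with 307, 330.0 and 325 against 323, 341 and 294. Its log2 fold change was -0.01 (interval in folds 0.778 to 1.27); after quantile normalization, which lowers bright features in NOT1+/- arrays, it was -0.64 and called lower (adjusted p = 0.023). Relative to VHA-a1, VHA-a3 fell by 1.28 on the log2 scale (limma adjusted p = 9.62e-04), and relative to VHA-a2 it fell by 1.81 (adjusted p = 8.48e-04). VHA-a2 and VHA-a1 were not shown to differ in their rise (0.53, interval in folds 1.00 to 2.08, adjusted p = 0.194). With 16 intensity units added before log2, a setting that shrinks changes of dim features, the rise of VHA-a2 was 0.93 and still called. There the change of VHA-a3 relative to VHA-a2 was -0.94, also still called.

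The proton-carrying ring is built from c and c'' subunits, small proteolipids. Limma called 0 of its 7 genes, beside 12.1% of all features. An unadjusted p under 0.05 was found for 1, VHA-c3 (AT4G38920_at), and for 25.7% of all features. After quantile normalization VHA-c3 and VHA-c''2 were called lower, both with a log2 fold change of -0.66. The 5 c genes encode proteins known to be nearly identical, and the labels do not say whether their probes tell them apart; no pump gene had the same 6 values as another feature. VHA-c1 (AT4G34720_at) had 116, 130.0 and 144 in wild type and 156, 155 and 138 in NOT1+/-, which overlapped. VHA-c3 had 35.4, 32.3 and 37.0 against 26.0, 25.0 and 24.7. These did not overlap, and the log2 fold change was -0.47 (interval -0.81 to -0.12, limma adjusted p = 0.092).

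The pair of VHA-c3 and VHA-c1 was the 1 called pair in which neither gene was called alone. VHA-c3 fell relative to VHA-c1 by 0.67 on the log2 scale (interval in folds 0.485 to 0.813, limma adjusted p = 0.033). It failed without any 1 of the 6 arrays (0.057 to 0.114) and was called in 4 of 13 alternatives. VHA-c2 (AT1G19910_at) had 217, 193 and 202 against 227, 204 and 211, with overlap (log2 fold change 0.07), and VHA-c5 (AT2G16510_at) had 54.8, 45.8 and 58.5 against 50.6, 51.6 and 43.1, also with overlap (-0.13). VHA-c4 (AT1G75630_at) was dim, with 8.40, 12.0 and 9.37 against 9.79, 8.61 and 6.67, below the array median on all wild-type arrays. The c'' genes had log2 fold changes of -0.03 (VHA-c''1, AT4G32530_at) and -0.34 (VHA-c''2, AT2G25610_at), with wild-type means of 138 and 61.2.

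Subunit d couples the shaft to the ring, and its 2 genes are direct neighbours in gene order. VHA-d1 (AT3G28710_at) had intensities of 316 to 345 in wild type and 254 to 295 in NOT1+/- (log2 fold change -0.31, adjusted p = 0.257), and VHA-d2 (AT3G28715_at) had 93.1 to 94.8 and 92.7 to 100.3 (0.03, adjusted p = 0.934). Their change relative to each other, 0.34, did not pass (limma adjusted p = 0.244). Subunit e, the smallest, is encoded by the brightest pump genes in wild type by signal. VHA-e1 (AT5G55290_at) had 343 to 435 against 285 to 306 and VHA-e2 (AT4G26710_at) 440 to 464 against 298 to 360; both pairs of groups were apart, with log2 fold changes of -0.40 and -0.46 (adjusted p = 0.166 and 0.108). After quantile normalization VHA-d1, VHA-e1 and VHA-e2 were called lower, with -0.93, -1.01 and -1.08.

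By sector, 5 of the 14 V1 genes rose and 1 fell, and 2 of the 14 VO genes rose and 0 fell, without a test between the sectors. The shares higher were 35.7% and 14.3%, beside 8.84% among all features and 15.7% among those above the 75th percentile of wild-type level. Both VO rises were in subunit a, and the ring, d and e genes had log2 fold changes between -0.47 and 0.20.

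The pyrophosphatases showed 1 large rise. AVP1 (AT1G15690_at), the abundant enzyme of the vacuole membrane that depends on potassium, had 165, 169 and 189 in wild type and 185, 193 and 181 in NOT1+/-. The groups overlapped, and its log2 fold change was 0.10 (interval -0.25 to 0.45, limma adjusted p = 0.726). AVP2 (AT1G78920_at, also VHP2;1), of the type known from the Golgi that does not depend on potassium, had 7.90, 10.9 and 8.03 against 42.5, 42.4 and 36.5. It rose 4.57-fold (log2 fold change 2.19, SE 0.19, interval 1.76 to 2.62, adjusted p = 1.87e-04) from below the array medians to a mean percentile of 84.0. AVPL1 (AT1G16780_at, also VHP2;2), its relative of the same type, had 13.8, 18.2 and 16.8 against 14.3, 16.3 and 16.0, with overlap (-0.06, interval -0.46 to 0.34).

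AVP2 rose relative to AVP1 by 2.09 on the log2 scale (interval in folds 3.11 to 5.83, limma adjusted p = 2.95e-04), and relative to AVP2 AVPL1 fell by 2.25 (adjusted p = 1.21e-04). The change between AVPL1 and AVP1 had a fold interval of 0.684 to 1.17. AVPL1 lay close to the array medians, at a mean wild-type percentile of 62.5, which limits what its small change shows. Because no detection calls mark which dim values are background, the sizes of the rises of AVP2 and VHA-a2 are uncertain. With 16 units added before log2 that of AVP2 was 1.18 and still called. In that setting the change of AVP2 relative to AVP1 was 1.09 and that of AVPL1 relative to AVP2 was -1.21, both still called. AVP2 lies near VHA-A on chromosome 1, with 2 protein-coding genes between them. Neither of those was called, with log2 fold changes of -0.30 for AT1G78910 and -0.48 for AT1G78915.

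Genes for exchangers, chloride channels, water channels and soluble enzymes that consume pyrophosphate were examined as 5 short lists. A further 4 loci were listed as assembly factors. The reference table gives them neither a symbol nor a role, so that role was not checked. Together these made 39 genes in all. Here 6 rose and 0 fell in the fit to all features, 15.4% against 8.84% higher among all features, of which 3.22% fell. An unadjusted p under 0.05 was found for 13 of the 39 (33.3%) and for 25.7% of all features. The rises were of 2 NHX genes and 1 gene in each of 4 other lists. NHX3, of the sodium and proton exchangers, had 7.62, 8.87 and 9.19 in wild type and 339, 368 and 258 in NOT1+/- (limma log2 fold change 5.22, SE 0.19, adjusted p = 4.44e-06). NHX6, known as an exchanger of endosomes, had 30.0, 31.4 and 31.7 against 69.5, 72.0 and 51.1 (1.03, SE 0.18, adjusted p = 0.0084). The other 4 of 6 NHX genes did not pass, and their log2 fold changes lay between -0.43 and 0.49.

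TIP1;3, a water channel of the vacuole membrane known from pollen, rose from 57.7, 64.0 and 57.4 to 814, 886 and 651. This was 13.04-fold (limma log2 fold change 3.71, SE 0.18, adjusted p = 1.13e-05), and it was the 1 call among 10 TIP genes; TIP5;1, also bright, had 0.25 (interval -0.18 to 0.67). CLC-F, of the chloride channel family, went from 12.3, 9.73 and 8.34 to 54.4, 54.0 and 41.1 (2.31, SE 0.21, adjusted p = 2.50e-04), the 1 call among 7. PPa3, a soluble pyrophosphatase, went from 527, 479.6 and 531 to 2177, 2174 and 1956 (2.04, SE 0.15, adjusted p = 8.64e-05), the 1 call among 6.

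None of the 6 CAX calcium and proton exchangers was called by limma, and 1, CAX4, had an unadjusted p under 0.05 (log2 fold change -0.42). Among the 4 loci with no symbol, AT5G52980 rose from 18.7, 16.7 and 20.7 to 118, 107 and 95.7 (log2 fold change 2.51, SE 0.17, limma adjusted p = 5.38e-05). TIP1;3, PPa3, NHX6 and AT5G52980 were called in all 13 alternative fits. NHX3 and CLC-F were also called in all 13, but they passed the filter on dim features only through their NOT1+/- values, so 12 of the fits count for them. The wild-type means of NHX3 and CLC-F, 8.56 and 10.1, were under the array medians, which leaves their fold changes uncertain in size; with 16 units added before log2 they were 3.77 and 1.33 on the log2 scale, and that of AT5G52980 was 1.82.

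**Figure D4:**
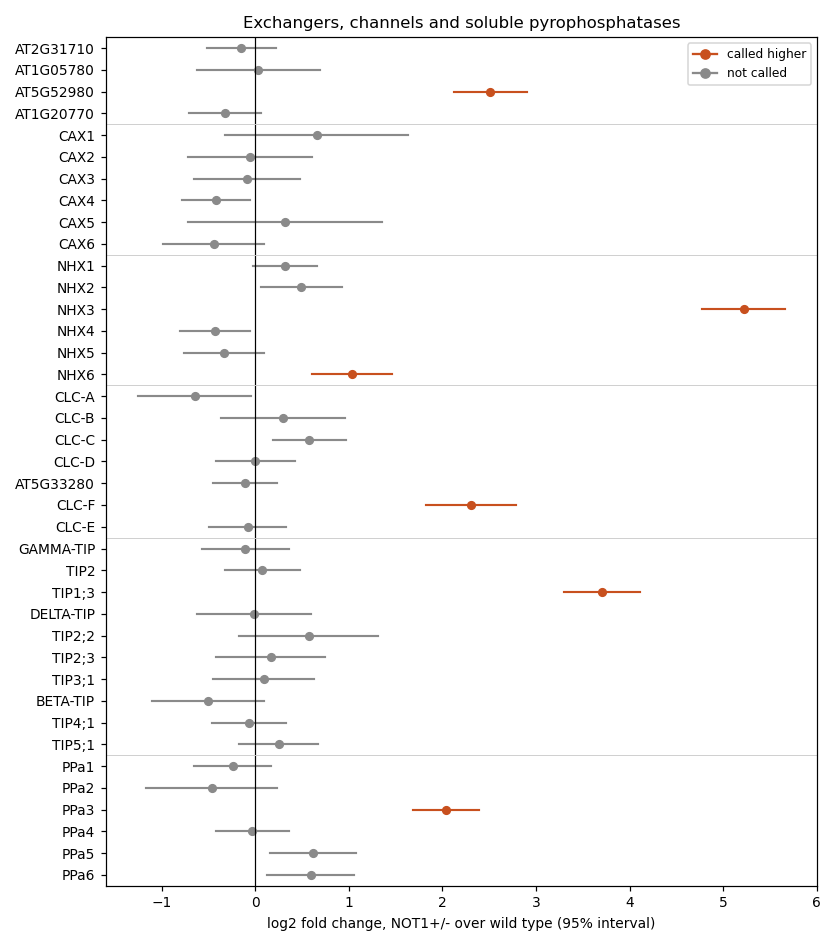
Log2 fold change with 95% interval of 39 genes in 6 groups: 4 loci without a symbol, CAX exchangers, NHX exchangers, CLC channels, TIP water channels and soluble pyrophosphatases. The 6 genes called higher (orange) range from 1.03 (NHX6) to 5.22 (NHX3), and most other genes have intervals that include 0.

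NOT1+/- replicate 3 was the lowest of its group in 6 of the 8 pump genes called higher, beside 77.5% of the 2461 features called higher, and in 6 of the 6 called genes among the 39. It was the highest in 5 of the 5 sperm markers, whose part in these values was not tested. Over all features each pair of NOT1+/- arrays correlated at r = 0.965, as a description. Without replicate 3 the log2 fold change of VHA-E2 was 3.61 and that of VHA-G3 3.91, against 3.40 and 3.77 with all arrays.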

How the data were processed

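The arrays' intensity values, linear and with 1 value per locus and array, were used as the authors deposited them. Per the submitters' processing notes they come from Affymetrix Expression Console; how background, summarisation and array scaling were handled is not stated there. Each array's minimum was 1. Neither detection calls nor batch labels were at hand, and the small number of arrays limits precision. Values were log2-transformed without an offset or filter, and genotypes were compared in limma 3.58.1 (R 4.3.3; lmFit, then eBayes without trend or robust), NOT1+/- minus wild type, with Benjamini-Hochberg adjustment over all 27827 features. Paralogue pairs entered as 28 additional rows of within-array log2 differences. The limma p-values set the difference between genotypes against the spread between the biological replicates of the labels, with variances shared across features. A limma fit with pair differences added as rows was tried on simulated data, which does not check the other steps.

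The members and lists were chosen with earlier results of these data known. All 31 genes are accounted for; values on each array are given for called genes and their paralogues and for single-copy subunits, and of each further list every called gene is named. Other genes singled out, such as TIP5;1, CAX4 and the loci between VHA-A and AVP2, were chosen after their values were seen. All 31 loci matched the RefSeq gene table (TAIR10.1), used for names and gene order only. That AT1G02080 is NOT1 is background knowledge. Same-numbered replicates were checked for pairing. Their deviations from the group means correlated at 0.114, 0.133 and -0.01, and those of unlike-numbered replicates at -0.208 to 0.0928. The numbers were not taken to pair samples, and a fit with replicate number as a block is given among the alternatives. Figures were drawn with matplotlib 3.10.9.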

Additional observations from a re-analysis of the deposited data

How the results depend on the processing

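Results were recomputed under 13 alternatives: a replicate block, a variance trend with robust eBayes, 3 rescalings, a filter on dim features, 16 units added before log2, and each array left out in turn. With the replicate block, 6 pump genes were higher and 1 lower, against 8 and 1: VHA-A, VHA-B1 and VHA-G2 lost their calls (adjusted p = 0.078, 0.070 and 0.102) and VHA-E3 gained one (0.024); 9 pairs and 6 of the 39 further genes were called, as in the main result. Called pump genes numbered 15 after quantile normalization (9 lower), where 7.15% of all features were lower. With trend and robust, above the median level and with 16 units added there were 14 each (5 lower), against 9 in the main result. Of all features, 10.5%, 19.6% and 10.6% were higher in these 3 fits, and 5.24%, 10.9% and 5.35% were lower. Above the median level 30 pump genes were tested. Lower pump genes numbered 2 after centring on the 75th percentile and 0 after median centring, beside 5.25% and 2.05% of all features. Leaving out 1 array gave 0 lower calls each time and 6 to 8 pump genes higher. Of all features, 0.927% to 2.56% were lower and 6.55% to 8.08% higher in those fits. With the replicate block 7.77% of all features were higher and 1.99% lower. Of the 39 genes, 10 were called, all higher, with trend and robust and with 16 units added; 1 was lower above the median level (CAX4) and 1 without NOT1+/- replicate 1 (BETA-TIP), so the range without 1 array was 0 to 1 lower. Called pairs numbered 8 to 11. Signs turned only for genes that were not called in the main result: after quantile normalization for VHA-C (-0.34), VHA-c1 (-0.27), VHA-c2 (-0.50), VHA-d2 (-0.39) and AVP1 (-0.46), after median centring for VHA-H (0.0465), VHA-a3 (0.0677), VHA-c''1 (0.0488) and AVPL1 (0.0188), and after centring on the 75th percentile for VHA-c2 (-0.0253) and VHA-d2 (-0.0696). Without 1 array the log2 fold change ranged from -5.36e-04 to 0.25 for VHA-C, from -0.106 to 0.0475 for VHA-H, from -0.0590 to 0.0473 for VHA-a3, from -0.113 to 0.0601 for VHA-c''1, from -0.00962 to 0.0473 for VHA-d2 and from -0.171 to 0.0248 for AVPL1. The causes of these differences were not tested, except that quantile normalization by construction dims the bright features of NOT1+/- arrays and fewer arrays or features change the adjustment. Values near the array medians limit the sizes of the changes of VHA-a2, AVP2, VHA-c4, VHA-G1 and AVPL1.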
